A study of Mus musculus with 4 samples.

Results

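The genes described here encode the nuclear subunits of oxidative phosphorylation, the chain of respiratory complexes I to IV and the ATP synthase, complex V. They were chosen by name among the protein-coding nuclear genes of GENCODE vM1 (mouse build mm9, NCBIM37): names beginning with Nduf and a subunit letter (complex I), the 4 Sdh genes (complex II), Uqcr (complex III), Cox4 to Cox8 (complex IV) and Atp5 (complex V). The rule found 87 of 22367 genes: 38 in complex I, 4 in complex II, 8 in complex III, 19 in complex IV and 18 in complex V. It used names only and no measured value. A few entries are named alike without being subunits. Cox4nb is the divergent neighbour of Cox4i1 and is not a cytochrome oxidase subunit, Atp5s and Atp5sl are not counted among the subunits of the ATP synthase, and Ndufa4, first assigned to complex I, is now placed in complex IV. Ndufb8 occurs under 2 gene IDs.

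The libraries were chromatin immunoprecipitation sequencing (ChIP-seq) of native mononucleosomes with an antibody labelled H3K4. The PA1-KO library came from B cells of the PA1 knockout and the WT library from B cells labelled PA1-WT, with 1 library per genotype among the 4 samples of the series, so no replicate check was possible and no test between genotypes was made. Both came from splenic B cells of mice aged 6 to 14 weeks, enriched by removing cells that carry CD43. They had been activated over 2 days by LPS at 25 µg/ml plus either an IgD antibody on dextran (2.5 ng/ml) or IL4 (5 ng/ml). The labels do not say which of these second stimuli was used for this pair, which methylation state of H3K4 the antibody bound, or how PA1 was deleted. PA1 binds PTIP, and both belong to the MLL3 and MLL4 complexes, which methylate H3K4. The question of the series was what its loss does to histone marks in activated B cells. The other 2 samples were not analysed here.

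Complexes I and II pass electrons from NADH and from succinate to ubiquinone, complex III passes them on to cytochrome c, and complex IV hands them to oxygen. Complexes I, III and IV pump protons, and complex V uses the gradient to make ATP. Most subunits are needed in every cell that respires, while several small subunits of complex IV have alternative genes used mainly in heart and skeletal muscle, lung or testis. Methylation of H3K4 marks the nucleosomes beside the start sites of active genes, and resting B cells raise mitochondrial respiration when they are activated.

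Reads were counted within 1 kb of 1 transcription start site (TSS) per gene, after moving the 5′ end of each read 75 bp into the fragment. The PA1-KO library held 5259995 nuclear reads and the WT library 5539475. The window is the same for every gene, so reads compare between genes per length. A promoter entered the comparison with a total of at least 50 reads over both libraries, as did 79 of the 87 oxidative phosphorylation genes and 12186 of all genes. Scaling used these promoters and the TMM method (trimmed mean of M values). Each ratio is PA1-KO over WT and is followed by a 95% interval that covers counting error only. A promoter was called higher or lower when the ratio was at least 1.5-fold and the interval excluded 1. At the targeted gene, PA1 (2900092E17Rik, chromosome 7), the promoter held 114 reads in the PA1-KO library and 261 in the WT library, a ratio of 0.498 (0.396 to 0.624). A histone mark at the promoter does not check the deletion itself. Of the marker lists, all 8 B cell genes were compared and had 376 to 570 PA1-KO reads and 385 to 585 WT reads. The 7 T and NK cell genes summed to 8 PA1-KO and 11 WT reads, with Cd3e at 1 and 0, the 6 heart and skeletal muscle genes to 15 and 12, with Ckm at 0 in both, and the 4 testis genes to 2 and 9, with Prm1 and Prm2 at 0 in PA1-KO. Of the 5 myeloid genes Cd14 had 118 PA1-KO and 171 WT reads while the others had at most 3, Csf1r being at 0 in both. In bulk cells, a smaller share of marked cells and less mark per cell cannot be told apart.

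Most oxidative phosphorylation promoters carried strong H3K4 signal in both libraries. The 79 promoters compared had a median of 290 reads in PA1-KO B cells and 301 in WT B cells, beside 215 and 243.5 over all 12186 promoters compared. The widest stretch of enrichment at these promoters had a median width of 2200 bp, against 2000 bp over all promoters compared. Among the complexes, IV had the lowest median level in both libraries, and the highest was II in PA1-KO and V in WT. Complex II had a median of 356 PA1-KO and 316 WT reads, complex V 327 and 350, complex I 301 and 320.5, complex III 293 and 322, and complex IV 238.5 and 264.5 (219 and 207 with its genes under 50 reads included). The most reads lay at Uqcr10, a small subunit of complex III, with 516 in PA1-KO and 507 in WT. Next came Ndufs1, the largest subunit of complex I (463 PA1-KO, 518 WT reads), and Sdhd, a membrane anchor of complex II (472 and 499). They were followed by Ndufa4 (496 and 463) and by Atp5c1, which encodes the rotating gamma subunit of the ATP synthase (459 and 494). Counting error alone spans the differences among these 5.

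The 8 genes with under 50 reads were alternative isoforms or doubtful entries. They were Ndufa4l2, Cox4i2, Cox6a2, Cox7b2, Cox8b and Cox8c, the second Ndufb8 entry with 10 reads in each library, and Atp5l-ps1, a gene named as a pseudogene, with 0 in both. A count of 0 allows up to 3 reads. Among the 79 compared, the fewest reads lay at Cox6b2 and Cox7a1, with 114 and 115 in the libraries combined.

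**Figure D1:**
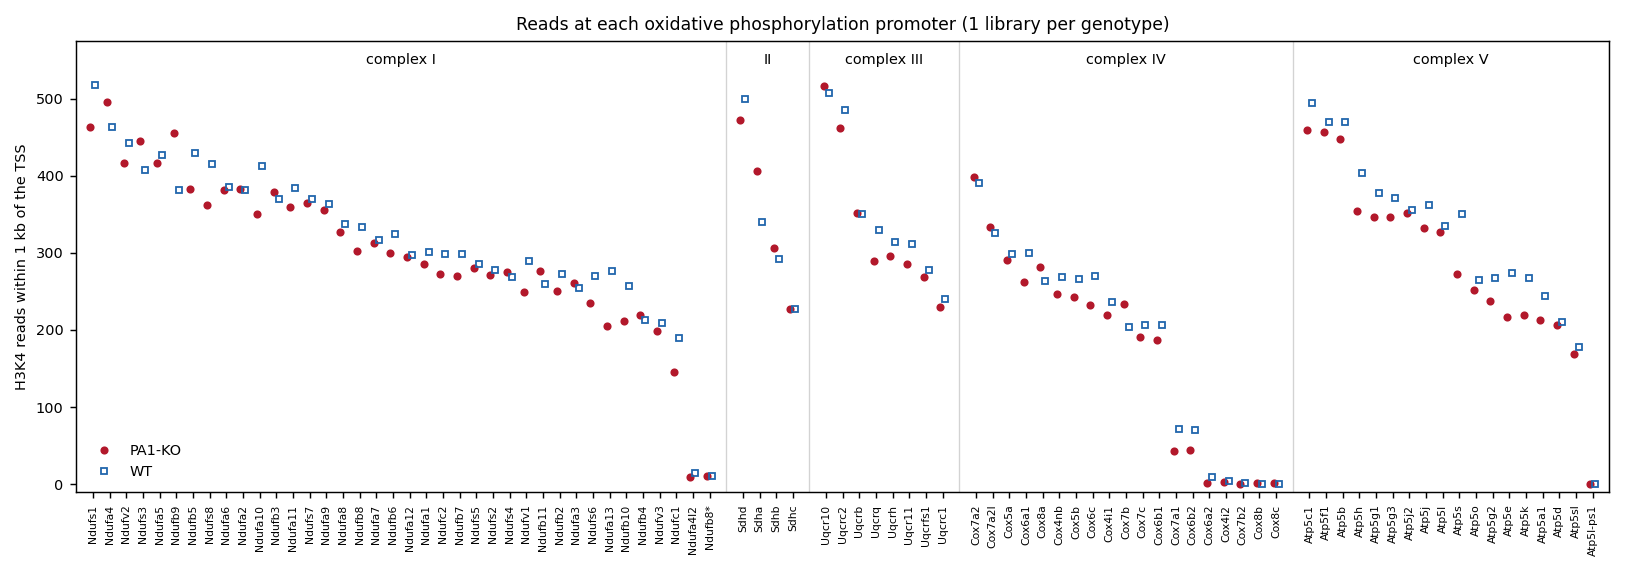
H3K4 reads within 1 kb of the TSS (vertical axis) at each of the 87 genes, grouped by complex and ordered by total reads, with filled circles for PA1-KO and open squares for WT (1 library per genotype). Most promoters hold 145 to 518 reads in either library, and the low points at the right of complexes I, IV and V are alternative isoforms or doubtful entries; Ndufb8* is the second Ndufb8 entry.

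The knockout library was close to wild type at these promoters. None of the 79 was called higher and none lower, beside 0.665% called higher, 4.9% called lower and 5.56% called in either direction over all promoters compared. Lower calls lay mostly at promoters with fewer reads than most members had. At 50 to 99 reads 244 of 912 promoters were called lower, and at 130 to 399 reads 244 of 3661. At 400 to 599 reads, with 35 members, 4 of 3809 were, and at 600 to 799 reads, with 25 members, 0 of 2463. The absence of lower calls thus does not set the members apart from promoters of like read level. The median ratio was 1.08, beside 1.0 over all promoters, a difference of 0.11 on the log2 scale, and the ratios ran from 0.682 at Cox7a1 to 1.36 at Sdha. The ratio lay above 1 at 64 of the 79 promoters, beside 50.2% of all promoters compared. It lay above 1 at 38 with scaling to total reads, 4 with scaling to reads outside promoters and enriched stretches (background) and 31 with the trends over GC content and read level removed. The median depended on the scaling in the same way: the median ratio was 0.997 when the libraries were scaled to total reads and 0.873 when scaled to background, where all promoters had 0.924 and 0.809. A change of scaling moves every promoter alike and cannot alter the difference from all promoters. The interval lay above 1 at 12 members, beside 10.1% of all promoters, and below 1 at 0 members, beside 11.4%. Both shares depended on read level. At 400 to 599 reads the interval lay above 1 at 4 of 35 members and 398 of 3809 promoters. At 600 to 799 reads it was 4 of 25 and 387 of 2463, and at 800 to 1029 reads 4 of 13 and 194 of 863. In these bins the interval lay below 1 at 246, 86 and 14 of all promoters. With scaling to total reads it lay above 1 at 3 members and below 1 at 4, beside 380 and 2734 of all 12186 promoters, and with scaling to background above 1 at 0 and below 1 at 32, beside 54 and 6806.

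Read level and base composition moved with this difference. Over all promoters compared the ratio was lower where reads were few, with a median of 0.736 at 50 to 99 reads and 1.08 at 800 to 1029 reads, and the oxidative phosphorylation promoters had more reads than most. Within the bin of 400 to 599 reads the 35 members had a median of 1.08 and all 3809 promoters 1.02, and within 600 to 799 reads the 25 members had 1.10 and all 2463 promoters 1.05. At 800 to 1029 reads the 13 members had 1.09 and all 863 promoters 1.08, nearly the same. Few members lay in the lower bins: at 130 to 399 reads 4 members had 1.04, beside 0.924, and at 100 to 129 reads the 2 members had 0.699, beside 0.782, which went the other way. GC content over the window was 51.1% at the members and 54.1% at all promoters (medians). With the trends over GC content and read level both removed, the log2 difference from all promoters was -0.0072, and the direction was lost.

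**Figure D2:**
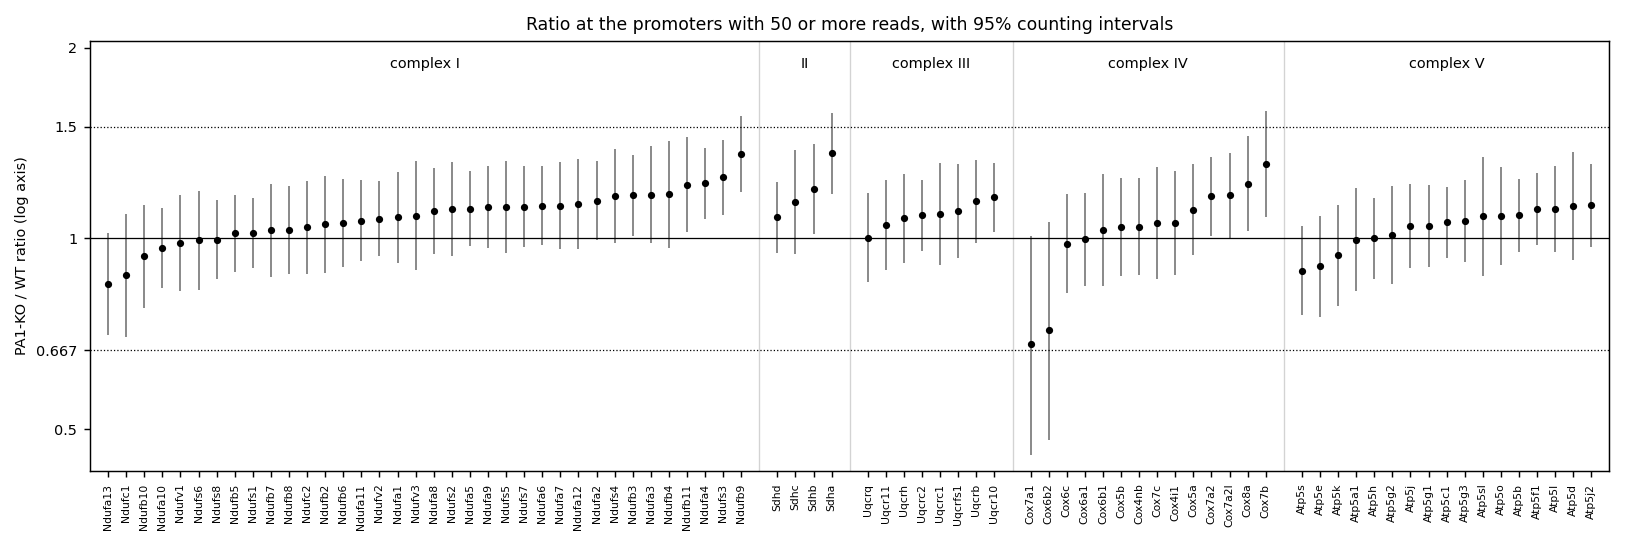
PA1-KO over WT ratio (log axis) at the 79 promoters compared, grouped by complex and ordered by ratio, with 95% counting intervals as bars and dotted lines at 1.5-fold in either direction. All points lie between 0.682 (Cox7a1) and 1.36 (Sdha), inside the dotted lines.

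Complex II had the highest median ratio of the 5 complexes, 1.17 over its 4 genes. Sdha, the flavoprotein that oxidises succinate, had 406 reads in PA1-KO and 340 in WT, a ratio of 1.36 (1.18 to 1.58). This was the highest ratio of all 79 members, under the 1.5-fold threshold, and 1.26 and 1.10 with scaling to total reads and to background. With the trends over GC content and read level both removed it was 1.13, under Ndufb9 at 1.20. Sdhb, the iron-sulfur subunit, had 306 PA1-KO and 292 WT reads, a ratio of 1.20 (1.02 to 1.41). Sdhc and Sdhd are the membrane anchors, which hold the complex in the inner membrane and help bind ubiquinone. Sdhc had 227 reads in each library, which after scaling was a ratio of 1.14 (0.945 to 1.38). Sdhd, with 472 PA1-KO and 499 WT reads, had 1.08 (0.950 to 1.23), and both these intervals included 1. Summed over the 4 promoters the ratio was 1.19 (1.10 to 1.28), and the median was 1.08 and 0.944 with scaling to total reads and to background. Complex II also held the median farthest from that of all promoters after both trends were removed, by 0.15 on the log2 scale, although no interval of its members then excluded 1.

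The Sdha promoter is shared with another gene, so its reads cannot be assigned to Sdha alone. Its TSS lies on the minus strand of chromosome 13 at position 74487687, and Ccdc127 starts 70 bp away on the other strand. The ratio was 1.36 on the side of Ccdc127 (156 PA1-KO, 131 WT reads) and 1.37 on the side of Sdha (250 and 209). Ndufb9, described next, is arranged in the same way. The promoters of this pair, which had the highest ratios, are shown from 250 bases before to 50 bases after the TSS on the strand of the gene in NCBIM37 (Sdha at chr13:74487638-74487937, Ndufb9 at chr15:58765115-58765414), with CpG dinucleotides in capitals, 25 in Sdha and 31 in Ndufb9.
Sdha: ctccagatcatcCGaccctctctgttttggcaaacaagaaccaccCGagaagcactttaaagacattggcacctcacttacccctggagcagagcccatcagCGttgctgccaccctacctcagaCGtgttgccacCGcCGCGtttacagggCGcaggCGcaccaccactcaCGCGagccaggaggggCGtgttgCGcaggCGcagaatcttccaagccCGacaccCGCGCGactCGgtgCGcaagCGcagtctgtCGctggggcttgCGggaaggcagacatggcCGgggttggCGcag
Ndufb9: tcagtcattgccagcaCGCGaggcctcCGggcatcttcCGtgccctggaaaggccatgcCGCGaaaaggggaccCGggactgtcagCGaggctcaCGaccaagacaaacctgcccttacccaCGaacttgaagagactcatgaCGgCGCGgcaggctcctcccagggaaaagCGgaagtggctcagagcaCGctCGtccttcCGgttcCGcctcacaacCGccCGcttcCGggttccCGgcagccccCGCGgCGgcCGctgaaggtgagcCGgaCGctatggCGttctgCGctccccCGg

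Complex I, which oxidises NADH, had a median ratio of 1.10 over its 36 promoters compared (1.01 and 0.885 with scaling to total reads and to background), with 29 above 1. Ndufb9, an accessory subunit of the membrane arm, had 455 PA1-KO and 382 WT reads, a ratio of 1.36 (1.18 to 1.56), and 1.254 and 1.10 under the other scalings. Its excess was larger on the gene's own side of the TSS, with 188 PA1-KO and 127 WT reads, with a ratio of 1.69 (1.34 to 2.13). On the upstream side, which it shares with Tatdn1 80 bp away, 267 PA1-KO and 255 WT reads gave 1.19 (1.0 to 1.42). The counting intervals of the 2 sides overlapped slightly. Ndufs3, a core subunit of the matrix arm, had 445 PA1-KO and 407 WT reads, giving a ratio of 1.248 (1.09 to 1.43).

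The other promoters of the Nduf names whose interval lay above 1 were Ndufa4 at 1.22, Ndufb11 at 1.22 and Ndufb3 at 1.17. The lowest ratios were at accessory subunits. Ndufa13, also known as GRIM-19, had 205 PA1-KO and 276 WT reads, a ratio of 0.848 (0.704 to 1.02), and Ndufc1 had 145 and 189 reads, with a ratio of 0.876 (0.700 to 1.09). Neither interval excluded 1. Ndufs1, with its iron-sulfur clusters, had a ratio of 1.02 (0.898 to 1.16).

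All 8 complex III promoters had ratios of 1.0 or more, with a median of 1.09 (1.01 and 0.881 with scaling to total reads and to background). Uqcr10 had the highest, 1.16 (1.03 to 1.32), and it was the only interval of this complex that excluded 1, with a ratio of 1.01 when both trends were removed. Uqcrb, a small subunit beside the ubiquinone sites, had 351 PA1-KO and 350 WT reads, giving a ratio of 1.14 (0.984 to 1.33). Its direction turned with base composition, to 0.930 once the GC trend was taken out and to 0.857 without either trend, where its interval lay below 1. The lowest were Uqcrq, with 290 PA1-KO and 330 WT reads, a ratio of 1.0 (0.854 to 1.18), and Uqcr11, with 286 and 311 reads, with a ratio of 1.05 (0.891 to 1.24). The large core proteins Uqcrc1 and Uqcrc2 had 1.09 each, and Uqcrfs1, the Rieske iron-sulfur protein, had 1.10.

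Complex V, the ATP synthase, ran from 0.890 to 1.13 over 17 promoters, with a median of 1.06 (0.979 and 0.856 with scaling to total reads and to background), and no interval excluded 1. The highest were Atp5j2, which encodes subunit f of the membrane part, with 352 PA1-KO and 356 WT reads, giving a ratio of 1.13 (0.971 to 1.31), and Atp5d, the delta subunit of the central stalk, with 207 and 210 reads, with a ratio of 1.12 (0.924 to 1.37). Atp5d rests on the choice of TSS: at its 5′-most annotated TSS the ratio was 0.575, which was called lower. The lowest were Atp5s, with 273 PA1-KO and 350 WT reads, a ratio of 0.890 (0.757 to 1.05), and Atp5e, the epsilon subunit of the central stalk, with 217 and 274 reads, with a ratio of 0.904 (0.753 to 1.08). The catalytic beta subunit gene Atp5b had 448 PA1-KO and 470 WT reads, with a ratio of 1.09 (0.954 to 1.24). Summed over complex V the ratio was 1.04 (1.01 to 1.08), under the interval of complex II, but members are not replicates and this compares these 2 libraries only.

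Complex IV held the widest range. Its 14 promoters compared had a median of 1.05 (0.970 and 0.849 with scaling to total reads and to background) and ran from 0.682 to 1.31. Cox7b, a small subunit gene on the X chromosome, had 234 PA1-KO and 204 WT reads, with a ratio of 1.31 (1.08 to 1.59). Its window had a GC content of 41.4%, and its ratio was 1.03 with the GC trend removed. Cox8a, another small subunit, had 281 PA1-KO and 263 WT reads, giving a ratio of 1.22 (1.03 to 1.45), and 0.985 when scaled to background. Cox5a and Cox5b, which are used in all tissues, had 1.11 and 1.04, and Cox6c and Cox7c had 0.981 and 1.06. The lowest ratios, at Cox6b2 and Cox7a1, belong to isoforms described next.

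The isoform genes separated sharply by level, and the separation was the same in both libraries. In every complex IV set the form used in most tissues carried 187 to 398 reads in PA1-KO and 204 to 390 in WT, and the muscle, lung or testis form carried 0 to 44 in PA1-KO and 0 to 72 in WT. Cox4i1, which encodes the regulatory subunit IV of most tissues, had 219 PA1-KO and 236 WT reads, and its lung counterpart Cox4i2 had 3 and 4. Cox6a1 had 262 and 300, and Cox6a2 of heart and skeletal muscle 2 and 9. Cox7b had 234 and 204, and Cox7b2 of testis 0 and 1. Cox8a had 281 and 263, while Cox8b of heart and skeletal muscle and Cox8c of testis each had 1 PA1-KO read and 0 WT reads. Cox6a2, Cox7b2, Cox8b and Cox8c lay far from any enriched stretch, at 30521, 612557, 8256 and 20116 bp. Cox4i2 was the exception, with an enriched stretch 1171 bp from its TSS and 55 PA1-KO and 45 WT reads within 5000 bp.

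**Figure D3:**
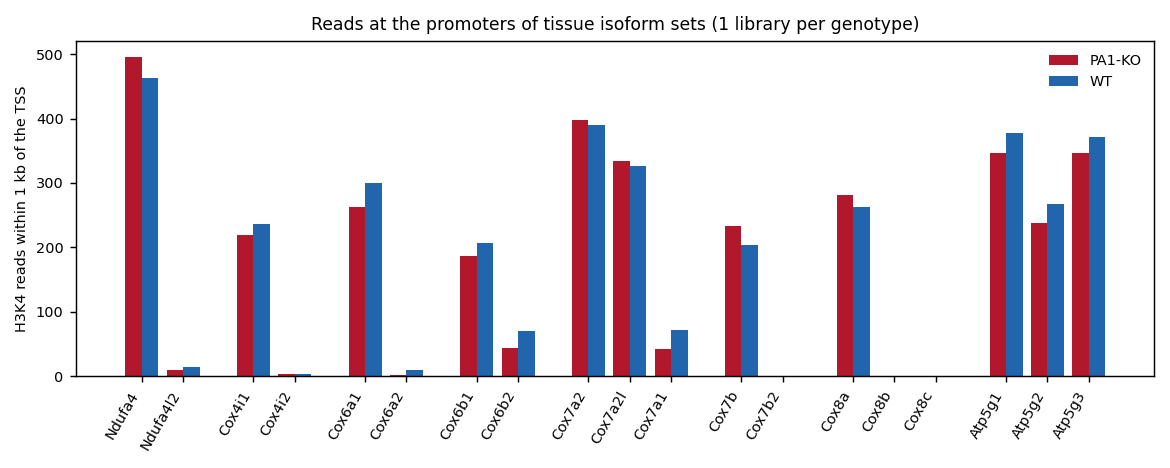
H3K4 reads within 1 kb of the TSS (vertical axis, from 0) at the genes of each isoform set, with the PA1-KO library in red to the left of the WT library in blue (1 library per genotype). The widely used form has the tall bars in each set, Cox6b2 and Cox7a1 are intermediate at 43 to 72 reads, and the 3 Atp5g genes are alike in level.

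A pair of tissue isoforms carried some signal. Cox7a1, the heart and skeletal muscle form of subunit VIIa, had 43 PA1-KO and 72 WT reads over an enriched stretch of 1000 bp, and a ratio of 0.682 (0.456 to 1.01). The widely used Cox7a2 had 398 and 390 reads, a ratio of 1.16 (1.01 to 1.34), which was 1.0 once the GC trend was taken out and 0.936 without either trend, and the related Cox7a2l, which takes part in joining complexes III and IV, had 334 and 326 reads, with a ratio of 1.17 (1.0 to 1.37). Cox6b2, the testis form of subunit VIb, had 44 PA1-KO and 70 WT reads, with a ratio of 0.717 (0.480 to 1.06), while Cox6b1 had 187 and 207 and a ratio of 1.03 (0.841 to 1.26).

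Neither interval of these weak isoforms excluded 1, and both were called lower when the libraries were scaled to total reads or to background, at 0.629 and 0.550 for Cox7a1 and 0.662 and 0.579 for Cox6b2. Weak promoters had low ratios across the genome. Of the 378 promoters with 100 to 129 reads, 105 were called lower and the median ratio was 0.782. With the level trend removed the ratios were 0.868 for Cox7a1 and 0.915 for Cox6b2. The heart and skeletal muscle markers and the testis markers had few reads, as given above. Both genes lie on chromosome 7, which also carries PA1, and the 7 members compared on that chromosome had a median of 1.04.

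Outside the genes named Cox, Ndufa4 had 496 PA1-KO and 463 WT reads, giving a ratio of 1.22 (1.07 to 1.39), while its counterpart Ndufa4l2, known to be induced by hypoxia, had 9 and 14. An enriched stretch of 3000 bp reached into the Ndufa4l2 window, and within 5000 bp of the TSS there were 215 PA1-KO and 278 WT reads. The 3 Atp5g genes encode the same mature c subunit of the proton-driven ring behind different import sequences. All 3 were marked, with 346 PA1-KO and 377 WT reads at Atp5g1, 238 and 268 at Atp5g2, and 346 and 371 at Atp5g3. Their ratios of 1.05, 1.01 and 1.06 differed by less than counting error.

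Promoter sequence differed between the marked and the unmarked isoforms in CpG content. From 250 bases before to 50 after the TSS, the 79 members compared held a median of 21 CpG dinucleotides and the 8 under 50 reads a median of 3.5, beside 23 over all promoters compared. Within sets, Cox4i1 held 46 and Cox4i2 4, Cox6a1 34 and Cox6a2 2, and Cox8a 19 and Cox8b 2. Cox7b and Cox7b2 went the other way, with 6 and 10. Cox7a1, with its intermediate signal, held 7, and Cox7a2 held 20. The promoters of the Cox7a and Cox8 pairs are shown as contrasts of a widely used and a muscle form, on the strand of each gene in NCBIM37 (Cox7a2 at chr9:79607611-79607910, Cox7a1 at chr7:30968940-30969239, Cox8a at chr19:7292057-7292356, Cox8b at chr7:148086296-148086595), with CpG dinucleotides in capitals.
Cox7a2: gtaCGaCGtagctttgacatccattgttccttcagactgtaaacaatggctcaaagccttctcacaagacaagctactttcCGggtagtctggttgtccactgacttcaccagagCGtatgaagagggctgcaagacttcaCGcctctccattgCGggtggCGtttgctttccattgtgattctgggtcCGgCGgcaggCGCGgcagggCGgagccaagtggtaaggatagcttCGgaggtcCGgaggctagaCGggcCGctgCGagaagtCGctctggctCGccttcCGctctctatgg
Cox7a1: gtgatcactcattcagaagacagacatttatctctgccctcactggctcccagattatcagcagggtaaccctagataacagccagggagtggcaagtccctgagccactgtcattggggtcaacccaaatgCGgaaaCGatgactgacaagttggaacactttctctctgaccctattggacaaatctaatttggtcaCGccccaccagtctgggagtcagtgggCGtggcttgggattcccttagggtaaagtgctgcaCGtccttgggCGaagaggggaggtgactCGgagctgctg
Cox8a: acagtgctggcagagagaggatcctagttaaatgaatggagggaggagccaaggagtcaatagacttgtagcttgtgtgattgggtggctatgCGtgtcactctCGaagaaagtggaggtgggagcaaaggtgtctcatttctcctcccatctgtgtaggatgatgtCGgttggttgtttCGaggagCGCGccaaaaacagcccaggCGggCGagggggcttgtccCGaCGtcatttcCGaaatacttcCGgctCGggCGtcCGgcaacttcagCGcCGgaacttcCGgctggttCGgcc
Cox8b: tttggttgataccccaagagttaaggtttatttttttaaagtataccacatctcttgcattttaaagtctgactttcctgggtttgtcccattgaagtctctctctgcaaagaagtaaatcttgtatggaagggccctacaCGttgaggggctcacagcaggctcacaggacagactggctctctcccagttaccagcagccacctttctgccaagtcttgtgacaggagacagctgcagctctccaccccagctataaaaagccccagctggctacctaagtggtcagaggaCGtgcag

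Among these promoters, the letters of a TATA box (TATAAA) occurred in Cox8b alone, beginning 5 bases into the annotated transcript. Letters of an ETS or GABP motif (CCGGAAG) occurred at Cox8a on the opposite strand, at -5 and 33 counted from the TSS as base 1, and at Ndufb9 on the opposite strand at -52 and -25. GABP, an ETS factor also called NRF2, is known to act on cytochrome oxidase genes.

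Motifs of the factors known to act on respiratory genes were more frequent at the members than at promoters in general, by letters alone and on both strands in the same 300 bases. The ETS and YY1 letters were about as frequent, or more so, at promoters of ribosomal proteins. Those families were chosen by name alone, as Mrpl or Mrps and as Rpl or Rps followed by a digit. The cytosolic rule matched 144 genes, which can include genes so named that do not encode ribosomal proteins. The letters AAGGTCA, bound by estrogen-related receptors (ERR), occurred at 15 of the 79 members compared (19.0%), beside 2.52% of all promoters compared, 3.95% of 76 promoters of mitochondrial ribosomal proteins and 0 of 86 promoters of cytosolic ribosomal proteins. They lay at 6 of 17 complex V promoters, 5 of 36 in complex I, 2 of 14 in complex IV, 1 of 8 in complex III and 1 of 4 in complex II. The letters CCGGAAG occurred at 29.1% of members and 18.7% of all promoters, the YY1 letters AAGATGG at 17.7% and 7.85%, and the long NRF1 core (GCGCATGCG or CGCATGCGC) at 8.86% and 3.52%. Promoters of mitochondrial ribosomal proteins held these letters at 38.2%, 19.7% and 7.89%, and those of cytosolic ribosomal proteins at 26.7%, 18.6% and 3.49%. The short NRF1 core GCATGC, which the long core contains, occurred at 13.9% and 9.31%. SP1 letters (GGGCGG) went the other way, at 45.6% of members and 67.5% of all promoters, and TATAAA occurred at 6.33% and 5.12%.

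The ERR letters are shown for 1 gene per complex, because their share at the members was the largest multiple of the share at all promoters. In percentage points the SP1 letters, which were less frequent at the members, stood farther apart. Each line runs in the direction of the gene in NCBIM37 with up to 10 bases on either side, and capitals mark AAGGTCA or, where it lies on the opposite strand, TGACCTT. The first capital lies at -235 from the TSS in Ndufs1 (chr1:63223615-63223641), 37 in Sdhd (chr9:50411905-50411928), -1 in Uqcrq (chr11:53243921-53243947), -26 in Cox7c (chr13:86185962-86185988) and -6 in Atp5c1 (chr2:10001793-10001819).
Ndufs1: ctagaggttaAAGGTCAaggtccgttc
Sdhd: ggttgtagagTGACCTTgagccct
Uqcrq: tgactggcctAAGGTCActtgggtgac
Cox7c: tcggagattgAAGGTCAttggaaacaa
Atp5c1: caaagagaacAAGGTCAcggtctgatc

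The ratio went both ways with these motifs. The 15 members with the ERR letters had a median of 1.05, ranging from 0.876 to 1.17, and the 64 without them a median of 1.09. Those with the ETS letters had 1.04 (23 members) and those without 1.10 (56 members). Members with the YY1 letters had 1.12 (14 members) and those without 1.06 (65 members). A match of letters is a description of the sequence and not a measured site.

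Divergent promoters were common among the members. A protein-coding gene started on the opposite strand within 1 kb upstream at 26 of the 79 (32.9%), beside 16.1% of all promoters compared. Promoters of mitochondrial ribosomal proteins had a partner at 32.9% and those of cytosolic ribosomal proteins at 16.3%. By complex the members with a partner numbered 13 of 36 in I, 3 of 4 in II, 4 of 8 in III, 2 of 14 in IV and 4 of 17 in V. Ndufb11 and Rbm10 start 3 bp apart, as do Ndufs1 and Eef1b2, Ndufa7 lies 29 bp from the ribosomal protein gene Rps28, and Sdhd 52 bp from Timm8b, which encodes a mitochondrial import protein. The 2 complex IV entries are Cox4i1 and Cox4nb, 178 bp apart, so most of their windows overlap.

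Like promoters in general, members with a partner had more signal and a larger share of it upstream. Their medians were 356.5 PA1-KO and 360 WT reads, against 271 and 285 for the 53 members without a partner. The upstream side held 40.5% of PA1-KO and 42.0% of WT reads where there was a partner and 31.4% and 28.9% where there was none (medians). Over all promoters compared, those with a partner had 310 PA1-KO and 339 WT reads and those without 198 and 226. Their upstream shares were 47.8% and 48.5% with a partner and 33.8% and 33.0% without. The median ratio of the members was 1.11 with a partner and 1.06 without, beside 1.04 and 0.991 for all promoters of each kind.

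**Figure D4:**
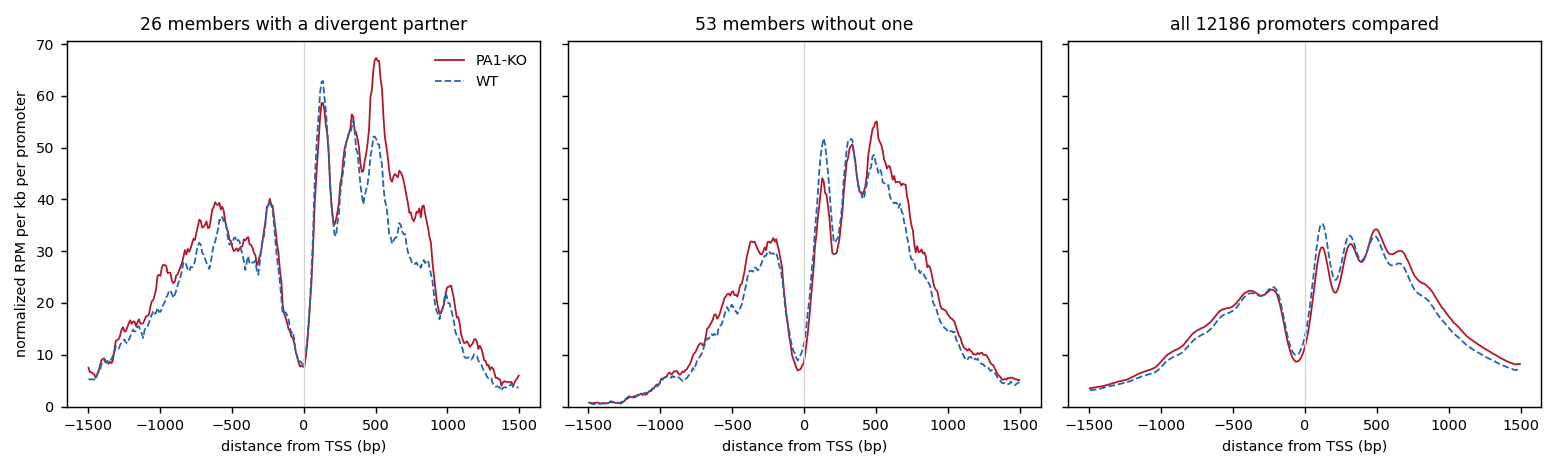
Normalized RPM (reads scaled to library size and by TMM) per kb and promoter (vertical axis) against distance from the TSS in bp, averaged over 26 members with a divergent partner, 53 without and all 12186 promoters compared, with solid red lines for PA1-KO and dashed blue lines for WT. The dip at the TSS and the regular peaks downstream stand out in all panels. Under this scaling the PA1-KO line lies under the WT line at the first downstream peak and over it farther out.

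Within the promoter the ratio changed with distance from the TSS. At the depleted stretch over the TSS, from 100 bp upstream to 20 bp downstream, the 79 members summed to 429 PA1-KO and 597 WT reads, a ratio of 0.820 (0.723 to 0.930). At the first downstream peak (60 to 200 bp) they had 2339 and 2977 reads, with a ratio of 0.897 (0.849 to 0.947). The ratio was thus under 1 where the nucleosome nearest the start of the gene lies.

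Farther out the ratio was higher. At the second peak (260 to 400 bp) it was 0.992 (0.941 to 1.04), at the third (430 to 570 bp) 1.18 (1.12 to 1.24), with 3086 PA1-KO and 2995 WT reads, and from 600 to 1000 bp 1.20, with a lower bound of 1.16 and with 5218 and 4953 reads. Upstream it was 1.06 (0.993 to 1.13) at -300 to -160 bp and 1.15 (1.11 to 1.20) at -1000 to -400 bp. Scaling moves all of these together: from 600 to 1000 bp the ratio was 1.11 with total reads and 0.971 with background, and at the first peak 0.827 and 0.724, while the order with distance cannot change with scaling.

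All promoters compared had the same order with smaller values away from the TSS. Their ratio was 0.859 over the TSS, 0.874 at the first peak, 0.959 at the second, 1.04 at the third and 1.12 from 600 to 1000 bp. The intervals of the members lay above those of all promoters from 430 bp outward and in both upstream stretches, and included them over the TSS, at the first peak and at the second peak. These sums were not matched for read level or GC content, with which the overall difference moved. Their intervals leave out the spread between promoters, so the excess cannot be assigned to the members as such. From 600 to 1000 bp the ratio was 1.21 in complex I, 1.38 in complex II, 1.23 in complex III, 1.21 in complex IV and 1.15 in complex V, each with an interval above 1. With scaling to background these ratios were 0.974, 1.12, 0.990, 0.974 and 0.931, so only complex II stayed above 1. At the first peak the 5 complexes lay between 0.856 and 0.931.

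**Figure D5:**
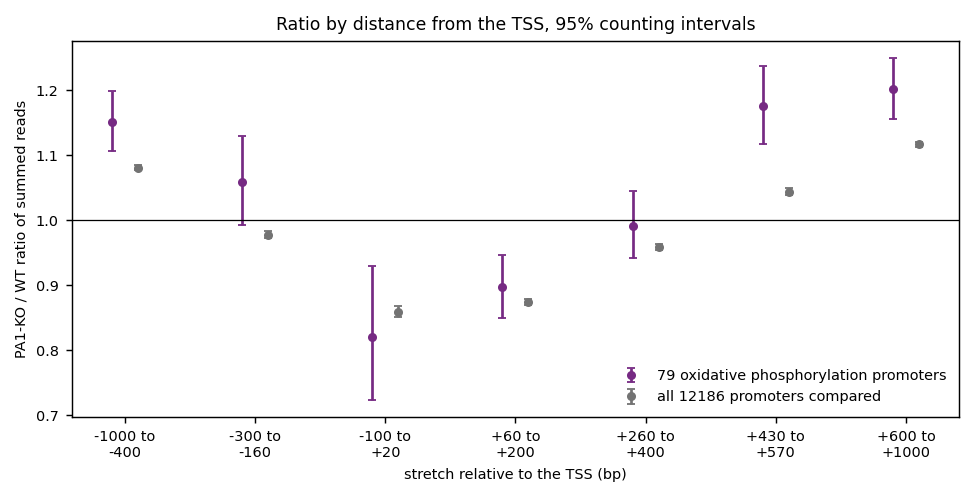
PA1-KO over WT ratio of summed reads (vertical axis) in 7 stretches at given distances from the TSS in bp, for the 79 oxidative phosphorylation promoters (purple) and all 12186 promoters compared (grey), with 95% counting intervals as bars. The purple points run from 0.820 over the TSS to 1.20 at 600 to 1000 bp downstream, and lie above the grey points at the outer stretches.

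Genes that build or regulate the complexes were set beside the subunits, from lists of 55 names of which 50 matched and 47 were compared. None was called in either direction, beside 5.56% of all promoters compared, and the median ratio was 1.02. Lower calls were rare at promoters with 400 to 799 reads, as given above. Some of the 47 lay outside that range, from 150 reads over both libraries at Sco2 to 1264 at Ucp2. At 130 to 399 reads 244 of 3661 promoters were called lower. The interval lay above 1 at 2 of the 47, beside 10.1% of all promoters. Of the 10 complex I assembly and related genes, Ndufaf1, an assembly factor, had 265 PA1-KO and 247 WT reads, a ratio of 1.22 (1.03 to 1.46). Sdhaf2, which helps attach the flavin to Sdha, had 336 and 322 reads, with a ratio of 1.19 (1.02 to 1.39). Its partner in the list, Sdhaf1, had 1.13 (0.957 to 1.33).

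The interval lay below 1 at 2 of the 47, beside 11.4% of all promoters. Surf1, an assembly factor of complex IV, had 426 PA1-KO and 553 WT reads, with a ratio of 0.879 (0.773 to 0.999), and Ppargc1b, a coactivator of respiratory genes, had 223 and 318 reads, with a ratio of 0.800 (0.671 to 0.953). Cyc1, the cytochrome c1 subunit of complex III that the naming rule misses, had 156 and 217 reads, with a ratio of 0.820 (0.664 to 1.01). The most reads of these lists lay at Ucp2, an inner membrane carrier, with 625 in PA1-KO and 639 in WT and a ratio of 1.12 (0.998 to 1.248), while Ucp1, the uncoupler of brown fat, had 3 and 5. The 12 regulators ran from 0.758 (0.569 to 1.005) at Yy1, with 85 PA1-KO and 128 WT reads and the lowest ratio of the 47, to 1.251 (0.993 to 1.58) at Polrmt, the mitochondrial RNA polymerase, with 160 and 146 reads. Between them, Nrf1 had 0.957, Gabpa 1.03, Esrra 0.935, Ppargc1a 1.08 and Tfam, which packages mitochondrial DNA, 1.02, each with an interval that included 1.

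The ratio of the members was close to that of other large housekeeping families. The 76 promoters of mitochondrial ribosomal proteins compared had a median of 1.05, with 1 called higher and 0 lower. The 86 of cytosolic ribosomal proteins, chosen by the name rule above, had a median of 1.08, with 0 called. Over all promoters compared 0.665% were called higher and 4.9% lower. Median reads were 257.5 PA1-KO and 305 WT in the first family and 311.5 and 321 in the second, levels at which lower calls were rare. No test of a difference between these families was made.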

How the data were processed

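The data were H3K4 ChIP-seq read lists from 1 PA1-KO and 1 WT library of activated B cells. The deposited files list 1 mapped read per line with its start and end (unit: other, positions of reads, not normalized). Per the submitters' processing notes, the authors' tools included SICER and the build was mm9, with no version or role stated. The aligner was not given in the sources used here. Each read spans 25 bases and no position and strand repeats, so strong sites are slightly compressed. Positions were 1-based: the mismatch letter equalled the genome base in 100% of 5000 reads checked per library.

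Libraries held 5260401 (PA1-KO) and 5539549 (WT) reads. Reads were shifted 75 bp and counted within 1 kb of the annotated TSS with the most reads. TMM scaling trimmed 30% by ratio and 5% by level. Intervals are exact conditional binomial (Clopper-Pearson, 95%) and cover counting error only. Amplified reads here carry no molecular identifiers, so they may not be independent. With 1 library per genotype there is no test. Enriched stretches were joined 200 bp windows (Poisson probability under 1e-05) of at least 20 reads over both libraries. Trends were removed with natural splines of 5 degrees of freedom. Scripts used Python 3.11.15, numpy 2.4.6, scipy 1.17.1, pandas 2.3.3, pysam 0.24.0, patsy 1.0.2 and matplotlib 3.10.9 and were tested on simulated data. Promoter sequences were read from NCBIM37.

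The members, gene lists, motifs and alternatives were chosen with earlier results of these data known. Named genes were the 2 highest and 2 lowest ratios per complex, the 5 members with most and the 5 with fewest reads, the isoform sets and the Sdh genes; other members, and the genes of other lists, were named after their values were seen. The result of 1 further marker list is not reported here.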

Additional observations from a re-analysis of the deposited data

Results flagged for a closer look

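The mitochondrial genome, which encodes the other 13 protein subunits of complexes I, III, IV and V and has no histones, was outside the promoter comparison. It gave 406 reads in the PA1-KO library and 74 in the WT library, a ratio of 5.78 after scaling to total reads (4.50 to 7.51). This was marked because reads appeared above the WT level in data that no comparison used. Of these reads, 243 in PA1-KO and 44 in WT fell in the 13 protein-coding genes. They lay in 8 of these genes in PA1-KO and 7 in WT, and mt-Co2, mt-Co3, mt-Atp6, mt-Atp8 and mt-Nd4l had 0 in both libraries. mt-Nd5, a complex I subunit, had 79 PA1-KO and 16 WT reads, mt-Cytb, the cytochrome b of complex III, had 44 and 10, and mt-Co1, the largest subunit of complex IV, had 18 and 4. There is 1 library per genotype, and the cause was not tested.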

How the results depend on the processing

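With 0 members called in either direction, the counts moved under these alternatives. With the threshold lowered to a difference of 25%, 3 members were called higher (Sdha, Ndufb9 and Cox7b), beside 565 of all 12186 promoters. At that threshold 0 members were called lower, beside 1199 of all promoters. Lower calls numbered 2 with scaling to total reads and 2 with scaling to background (Cox6b2 and Cox7a1 in both), beside 948 and 2034 of all promoters. With the GC trend removed 1 member was called lower (Cox7a1), beside 452 of all promoters. With the WT library thinned to the PA1-KO depth it was 1 (Cox7a1), beside 593 of 12142. At the 5′-most TSS it was 1 (Atp5d), beside 541 of 11559. The log2 difference between the median of the members and that of all promoters, 0.11, was 0.038 with the GC trend removed, 0.054 with the trend over level removed and -0.0072 without either trend; it ran from 0.080 (2 kb window) to 0.13 (500 bp window) under the other alternatives. Chosen after seeing the data, leaving out entries that are no subunits and leaving out chromosome 7 gave 0.11 each. Of the ratios of 31 named promoters, 272 values under alternatives stayed within the counting interval and 38 did not, 28 of them with scaling to background; the alternatives that change only the read minimum leave a promoter's ratio as it is and are not counted. Depth limits a single promoter: Ndufb6, with 300 PA1-KO and 324 WT reads, had a ratio of 1.06 (0.900 to 1.24), and smaller differences were not detectable there. No paired analysis was possible because each genotype has 1 library and the labels carry no replicate numbers.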
